A study of Saccharomyces cerevisiae with 6 samples.

Results

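The genes described here encode the Hsp70 and Hsp110 chaperones of the cytosol of the budding yeast Saccharomyces cerevisiae. They were chosen by name for their known function: SSA1, SSA2, SSA3, SSA4, SSB1, SSB2, SSE1, SSE2, SSZ1 and FES1. Of these 10 genes, 9 could be read among the 4073 genes measured, each on 7 spots per array, and FES1, a nucleotide exchange factor of Hsp70, was not analysed here. Heat responses were measured on 6 arrays of 2 channels, 3 for a strain that lacks RPD3, which encodes a histone deacetylase, and 3 for wild type. In the rpd3 deletion, cells shifted to 39 °C for 20 minutes were set against control cells of that strain at 25 °C, and the wild-type arrays made the same comparison in BY4741. The deletion strain is labelled as BY4741 too, a laboratory background known to lack HIS3, LEU2, MET17 and URA3 in whole or in part. All cultures grew in rich medium (YPD) to mid-log phase. The labels call the arrays of a strain biological replicates from separate cultures of 200 ml, and do not say whether more than 1 deletion clone was used.

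Hsp70 proteins bind exposed hydrophobic stretches of unfolded proteins and release them in a cycle driven by ATP. J-proteins start the cycle by stimulating ATP hydrolysis, and nucleotide exchange factors, among them the Hsp110 proteins, end it by releasing ADP. In yeast the Ssa proteins serve the cytosol at large, the Ssb proteins sit on ribosomes and bind new chains, and Ssz1 forms the ribosome-associated complex with the J-protein Zuo1. Heat unfolds proteins, and the stress-inducible genes of this system are textbook targets of heat shock factor Hsf1 and, in part, of Msn2 and Msn4.

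All values are log2 ratios of the 2 channels of an array, called heat ratios here. Neither sign nor base is stated in the sources used here, and the sign is likely heated over control, since the design text gives the response relative to the control. Read so, the heat shock genes HSP104, HSP42 and HSP26, all outside the family, had wild-type means of 4.04, 3.44 and 4.76. Heat shock genes are named for their rise with heat, which makes the turned sign unlikely. On each array the control was labelled with Cy5 and the heated sample with Cy3, so this reading means Cy3 over Cy5, while limma's usual ratio is Cy5 over Cy3. With the sign turned, every value, rise and fall here would turn with it, sizes and adjusted p-values would not change, and ranks from the top would count from the bottom. With the dyes set this way, a dye effect cannot be told apart from heat within a strain. It cancels in the difference between strains where it is common to all arrays. RNA (500 ng) was labelled, so a heat ratio compares shares of the RNA, and a change in some cells cannot be told apart from a smaller change in all of them. A deletion strain has no RPD3 RNA in either channel, and the RPD3 ratio was -0.11, -0.03 and -0.08 on the mutant arrays, against 0.19, 0.20 and 0.26 on the wild-type arrays. The genes that BY4741 lacks were split likewise, each without overlap. Their means in the deletion and wild type were -0.14 and 0.15 (HIS3), -0.11 and 0.18 (LEU2), -0.06 and 0.12 (MET17), and -0.08 and 0.15 (URA3). The RPD3 ratios thus cannot show the loss of RPD3. Across genes, which are not independent replicates, arrays correlated with r = 0.851 to 0.956 within the deletion, 0.952 to 0.980 within wild type and 0.504 to 0.853 between strains. The spots of a member had an SD of 0.0304 to 0.0919 on a mutant array and 0.00913 to 0.105 on a wild-type array, which is small beside most gaps between arrays.

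Heat split the 9 genes in the same way in both strains. The Ssa and Hsp110 genes SSA1 to SSA4, SSE1 and SSE2 rose, and the ribosome-linked genes SSB1, SSB2 and SSZ1 fell, in the rpd3 deletion and in wild type. Calls rest on 1 limma fit over all 4073 genes and a threshold of 0.05 on the p-value after Benjamini-Hochberg adjustment. In the deletion 6 members rose and 3 fell, where 33.7% of all genes rose and 31.9% fell. In wild type 6 members rose and 3 fell as well, where 29.7% of all genes rose and 36.3% fell. The median heat ratio of the members was 1.85 in the deletion and 1.08 in wild type, against 0.0026 and -0.053 over all genes. These 18 calls held under all 14 alternatives tried for each strain. Several of these cannot move a strain's mean, only its adjusted p, such as leaving out an array of the other strain or robust eBayes.

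**Figure D1:**
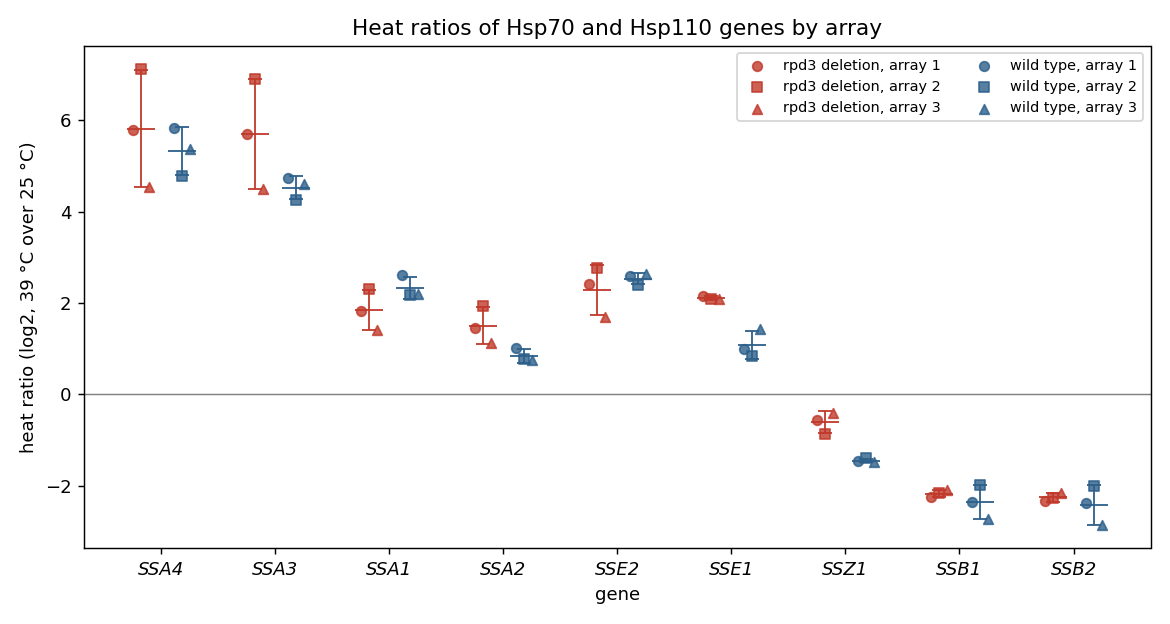
Heat ratio (log2, y axis) of the 9 genes (x axis) on each array, with the rpd3 deletion in red to the left of wild type in blue. Points are arrays, horizontal marks are means and bars are SDs over 3 arrays. SSA4 and SSA3 lie between 4.25 and 7.13 on the 6 arrays, SSB1 and SSB2 between -2.87 and -1.98, and SSE1, SSA2 and SSZ1 do not overlap between strains.

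The stress-induced Hsp70 genes SSA3 and SSA4, which are hardly used in unstressed growing cells, had the highest heat ratios of the family. SSA4 (YER103W) stood at 5.78, 7.13 and 4.55 on mutant arrays 1 to 3, against 5.84, 4.79 and 5.36 on wild-type arrays 1 to 3. The strains overlapped, and the mutant arrays spread over 2.58 log2 units where the wild-type arrays spread over 1.05. The mean corresponded to a 56.5-fold rise in the deletion (5.82 ± 1.29, SD, n = 3, limma adjusted p = 3.08e-05) and a 40.2-fold rise in wild type (5.33 ± 0.52, adjusted p = 2.73e-05). SSA3 (YBL075C) stood at 5.70, 6.90 and 4.50 on the mutant arrays, against 4.73, 4.25 and 4.61 on the wild-type arrays. Its mutant arrays 1 and 2 lay above all wild-type arrays, while mutant array 3 lay within their range. The mean was a 52.0-fold rise in the deletion (5.70 ± 1.20, adjusted p = 2.26e-05) and a 23.1-fold rise in wild type (4.53 ± 0.25, adjusted p = 3.28e-05). Among 4073 genes, SSA4 and SSA3 ranked 2 and 3 from the top in the deletion and 5 and 13 in wild type, and from the bottom if the sign is turned. Scanner intensities were not used, so whether a dim control signal affected the size of the SSA3 and SSA4 ratios was not tested.

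Neither gene passed the test for a strain difference, which is the mutant mean minus the wild-type mean of the heat ratio. Each ratio is taken against that strain's own control, so such a difference can stem from control cells, from heated cells or from both. For SSA3 the difference was 1.17 ± 0.53 (SE, 95% interval -0.067 to 2.41, limma adjusted p = 0.105). Without mutant array 3 it was 1.78 and was called (adjusted p = 0.0044), and without mutant array 2 it was 0.57, and adjusted p ran from 0.000432 to 0.256 over its alternatives. It was also called with quantile normalization, at 1.24 (adjusted p = 0.000432), and, narrowly, with arrays centred on the genes that BY4741 lacks, at 1.41 (adjusted p = 0.0491). For SSA4 the difference was 0.49 ± 0.60 (95% interval -0.91 to 1.89, adjusted p = 0.525), and it was -0.17 without mutant array 2 and 1.12 without mutant array 3. With quantile normalization the SSA4 difference was called, at 0.49 (adjusted p = 0.0173), the lowest adjusted p over alternatives that reached 0.829.

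The wide spread of the mutant arrays had a fixed order in most induced members. SSA1, SSA2, SSA3, SSA4 and SSE2 were each highest on mutant array 2 and lowest on mutant array 3, which is 5 of the 6 members that rose. The same order held for 536 of all 1372 genes that rose in the deletion, or 39.1%. Between these arrays SSA4 differed 5.98-fold and SSA3 5.29-fold, SSE2 2.12-fold, SSA1 1.85-fold and SSA2 1.75-fold. SSE1 stood apart, with mutant values that spread over only 0.076. What sets the mutant arrays apart was not tested.

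The constitutive genes SSA1 and SSA2, which supply most Ssa protein in unstressed cells, rose far less than SSA3 and SSA4. SSA1 (YAL005C) had heat ratios of 1.82, 2.30 and 1.42 on the mutant arrays, against 2.62, 2.18 and 2.20 on the wild-type arrays. Mutant arrays 1 and 3 lay below every wild-type array and mutant array 2 among them. The rise was 3.60-fold in the deletion (1.85 ± 0.44, SD, n = 3, limma adjusted p = 6.88e-05) and 5.03-fold in wild type (2.33 ± 0.25, adjusted p = 1.72e-05). SSA2 (YLL024C) had 1.46, 1.92 and 1.12 on the mutant arrays, against 1.02, 0.77 and 0.74 on the wild-type arrays. All mutant arrays lay above all wild-type arrays, by 0.10 at the nearest pair. The rise was 2.83-fold in the deletion (1.50 ± 0.40, adjusted p = 9.56e-05) and 1.80-fold in wild type (0.84 ± 0.15, adjusted p = 0.0014).

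The strain difference had opposite signs for these genes, and it was called for SSA2 only. For SSA2 it was 0.66 ± 0.20 (SE, 95% interval 0.18 to 1.13, limma adjusted p = 0.0342), with the heat ratio higher in the deletion. Leaving out wild-type array 1 (0.74, adjusted p = 0.0671), 2 (0.62, 0.108) or 3 (0.61, 0.0854), or mutant array 1 (0.68, 0.0879), ended that call, and adjusted p ran from 0.00432 to 0.108 over its alternatives. For SSA1 the difference was -0.48 ± 0.23 (95% interval -1.03 to 0.062, adjusted p = 0.124). Without mutant array 2 it was -0.71 and was called lower in the deletion (adjusted p = 0.0118, within 0.0118 to 0.369 over its alternatives).

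**Figure D2:**
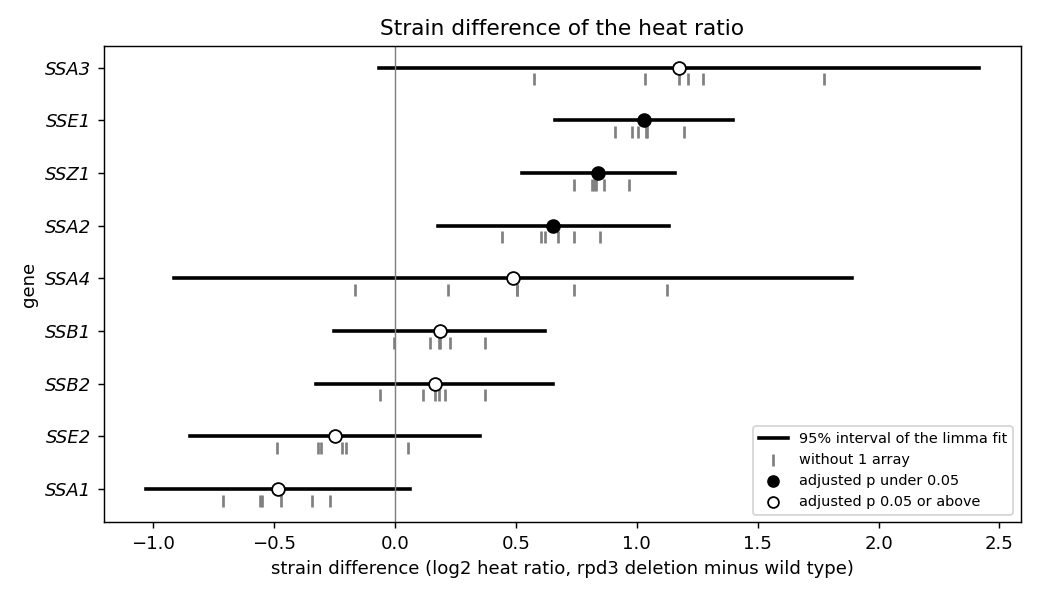
Strain difference of the heat ratio (log2, x axis, rpd3 deletion minus wild type) for the 9 genes (y axis). Lines are 95% intervals of the limma fit, filled points are called genes and grey ticks are the values with 1 array left out. SSE1, SSZ1 and SSA2 were called, and SSA3 and SSA4 have the widest intervals.

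Taken as pairs within an array, the paralogs stood closer together in the deletion for 3 of the 4 pairs. The heat ratio of SSA1 exceeded that of SSA2 by 0.36, 0.38 and 0.30 on mutant arrays 1 to 3, against 1.60, 1.41 and 1.45 on the wild-type arrays. SSA1 thus rose more than SSA2 on every array, by 1.27-fold in the deletion (0.35 ± 0.042, SD, n = 3) and by 2.80-fold in wild type (1.49 ± 0.10). The heat ratio of SSA4 exceeded that of SSA3 by 0.078, 0.23 and 0.049 on the mutant arrays, against 1.11, 0.54 and 0.76 on the wild-type arrays. The gap of the Hsp110 genes, SSE2 minus SSE1, was 0.24, 0.68 and -0.40 on the mutant arrays, against 1.60, 1.54 and 1.20 on the wild-type arrays. In each of these pairs the strains did not overlap. Of all single genes, 31.1% lay above in the deletion and 27.3% below without overlap, and the share over pairs of genes was not counted. The gaps follow from the heat ratios of the single genes and were not tested. SSB1 minus SSB2 was 0.086, 0.099 and 0.072 on the mutant arrays, against 0.032, 0.024 and 0.14 on the wild-type arrays, and there the strains overlapped. The genes of a pair are close copies, the probe sequences were not used here, and whether their spots share signal was not tested.

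**Figure D3:**
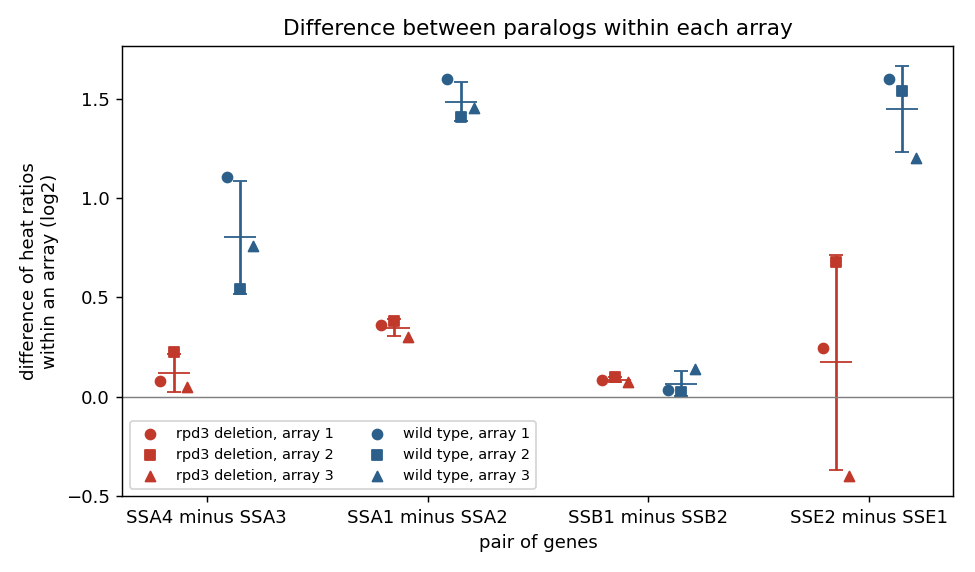
Difference between the heat ratios of 2 paralogs on the same array (log2, y axis) for 4 pairs (x axis), with the rpd3 deletion in red to the left of wild type in blue. Points are arrays, marks are means and bars are SDs over 3 arrays. For SSA1 minus SSA2 the mutant arrays lie between 0.30 and 0.38 and the wild-type arrays between 1.41 and 1.60.

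Of the Hsp110 genes, whose proteins exchange nucleotides on Hsp70, SSE1 had the strain difference with the lowest adjusted p of the family. SSE1 (YPL106C), the main form in growing cells, had heat ratios of 2.16, 2.09 and 2.09 on the mutant arrays, against 0.98, 0.85 and 1.42 on the wild-type arrays. The strains did not overlap. It rose 4.32-fold in the deletion (2.11 ± 0.042, SD, n = 3, limma adjusted p = 2.11e-05) and 2.12-fold in wild type (1.08 ± 0.30, adjusted p = 9.48e-05). The difference of 1.03 ± 0.16 (SE, 95% interval 0.66 to 1.40, adjusted p = 0.00261) was called under all 14 alternatives. SSE2 (YBR169C), the stress-induced form, had 2.40, 2.77 and 1.69 on the mutant arrays, against 2.59, 2.39 and 2.62 on the wild-type arrays. It rose 4.88-fold in the deletion (2.29 ± 0.55, adjusted p = 4.07e-05) and 5.79-fold in wild type (2.53 ± 0.13, adjusted p = 1.76e-05). Its strain difference of -0.25 ± 0.26 (95% interval -0.85 to 0.35, adjusted p = 0.452) was not called and was 0.053 without mutant array 3 and 0.050 with quantile normalization.

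The ribosome-bound genes SSB1 and SSB2 had the lowest heat ratios of the family in both strains. SSB1 (YDL229W) had heat ratios of -2.26, -2.16 and -2.09 on the mutant arrays, against -2.36, -1.98 and -2.73 on the wild-type arrays. SSB2 (YNL209W) had -2.35, -2.26 and -2.17 on the mutant arrays, against -2.39, -2.01 and -2.87 on the wild-type arrays. For both genes the narrow range of the mutant arrays lay inside that of the wild-type arrays. RNA of SSB1 was 4.51-fold lower after heat in the deletion (-2.17 ± 0.083, SD, n = 3, limma adjusted p = 2.11e-05) and 5.13-fold lower in wild type (-2.36 ± 0.38, adjusted p = 1.34e-05). That of SSB2 was 4.78-fold lower in the deletion (-2.26 ± 0.090, adjusted p = 2.24e-05) and 5.36-fold lower in wild type (-2.42 ± 0.43, adjusted p = 1.36e-05). The strain difference was 0.19 ± 0.19 for SSB1 (SE, 95% interval -0.25 to 0.62, adjusted p = 0.437) and 0.16 ± 0.21 for SSB2 (-0.32 to 0.65, adjusted p = 0.538). Without wild-type array 3 these differences were -0.0033 and -0.061.

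Cytosolic ribosomal protein genes were set beside SSB1 and SSB2, since their products share the ribosome. The median heat ratio over 135 of them was -2.14, -2.16 and -1.69 on the mutant arrays, against -2.13, -1.87 and -2.47 on the wild-type arrays. In the deletion 129 of them fell and 1 rose, where 31.9% of all genes fell and 33.7% rose. In wild type 132 fell and 1 rose, where 36.3% of all genes fell and 29.7% rose. On the wild-type arrays SSB1, SSB2 and this median were each highest on array 2 and lowest on array 3. On the mutant arrays all were highest on array 3, but SSB1 and SSB2 were lowest on array 1 and the median on array 2. How many of all genes share these orders was not counted.

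SSZ1 (YHR064C), the atypical Hsp70 of the ribosome-associated complex, fell less in the deletion. It had heat ratios of -0.55, -0.86 and -0.41 on the mutant arrays, against -1.47, -1.40 and -1.48 on the wild-type arrays. Every mutant array lay above every wild-type array. Its RNA was 1.52-fold lower after heat in the deletion (-0.61 ± 0.23, SD, n = 3, limma adjusted p = 0.00103) and 2.73-fold lower in wild type (-1.45 ± 0.043, adjusted p = 1.43e-05). The strain difference of 0.84 ± 0.13 (SE, 95% interval 0.53 to 1.16, adjusted p = 0.00309) was called under all 14 alternatives. ZUO1, its J-protein partner in that complex, had -1.12, -1.32 and -1.02 on the mutant arrays, against -1.60, -1.35 and -1.84 on the wild-type arrays. The strains did not overlap for ZUO1, although mutant array 2 and wild-type array 2 lay close, and its difference of 0.44 ± 0.15 was narrowly called (adjusted p = 0.0461). That call was lost under 8 of 14 alternatives (adjusted p up to 0.224), among them the absence of wild-type array 1 (0.44) or 3 (0.32) or of mutant array 1 (0.43) or 3 (0.38).

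In all, 3 of the 9 members had a higher heat ratio in the deletion (SSA2, SSE1 and SSZ1) and 0 a lower one, where 24.8% of all genes were higher and 21.0% lower. The same 3 members did not overlap between strains, all with the mutant above, where 31.1% of all genes lay above and 27.3% below. These shares are near those of all genes, so the count says little of the family as a whole. The median strain difference was 0.49 over the members and 0.021 over all genes. How many differences were called in each direction over all genes depends on where 0 is set: 1012 higher and 854 lower (54.2% higher) as deposited, and 1564 and 398 (79.7% higher) with arrays centred on HIS3, LEU2, MET17 and URA3. That centring adds 0.24 to every strain difference, and no member changed sign or lost a call by it. Whether genes that BY4741 lacks in whole or in part give the right 0 for expressed genes was not tested. In wild type alone the same centring gave 885 rises and 1816 falls (32.8% rises), against 1210 and 1477 (45.0% rises) as deposited.

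Set in order of the mean heat ratio, the family ran SSA4, SSA3, SSE2, SSE1, SSA1, SSA2, SSZ1, SSB1 and SSB2 in the deletion. In wild type the order was SSA4, SSA3, SSE2, SSA1, SSE1, SSA2, SSZ1, SSB1 and SSB2. In the deletion, SSE2 and SSE1 (mean gap 0.17 ± 0.54, SD, n = 3) and SSE1 and SSA1 (0.26 ± 0.45) did not differ beyond the spread of their gap over arrays. In wild type this held for SSE2 and SSA1 (0.20 ± 0.23) and for SSE1 and SSA2 (0.24 ± 0.38). All other neighbours kept their order on all 3 arrays of the strain, with gaps down to 0.085 ± 0.014 for SSB1 over SSB2 in the deletion and 0.064 ± 0.063 in wild type.

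As classes, SSA3 and SSA4 averaged a heat ratio of 5.74, 7.02 and 4.52 on the mutant arrays, against 5.28, 4.52 and 4.99 on the wild-type arrays. SSA1 and SSA2 averaged 1.64, 2.11 and 1.27 on the mutant arrays, against 1.82, 1.48 and 1.47 on the wild-type arrays. SSB1 and SSB2 averaged -2.30, -2.21 and -2.13 on the mutant arrays, against -2.37, -2.00 and -2.80 on the wild-type arrays. The class order was thus the same on all 6 arrays. The stress-induced class exceeded the constitutive one by 4.10, 4.90 and 3.26 on the mutant arrays, against 3.47, 3.04 and 3.51 on the wild-type arrays. The class mean of SSA1 and SSA2 differed little between strains (1.67 ± 0.42, SD, n = 3, in the deletion and 1.59 ± 0.20 in wild type) while SSA1 had the lower and SSA2 the higher mean in the deletion.

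Partners that act in the Hsp70 cycle were set beside the family. Of 13 J-proteins of the cytosol and nucleus, 9 were measured, of which 5 rose and 2 fell in the deletion and 4 rose and 2 fell in wild type. Over all genes 33.7% rose and 31.9% fell in the deletion, and 29.7% rose and 36.3% fell in wild type. Of the 9 J-protein genes, 6 had a higher heat ratio in the deletion and 1 a lower one, where 24.8% of all genes were higher and 21.0% lower. Their median strain difference was 0.82, against 0.021 over all genes. The lower count was 2 without mutant array 2, and only 1 gene was called as falling in the deletion when any mutant array was left out. SIS1, an essential J-protein, had 3.65, 3.93 and 3.19 on the mutant arrays, against 1.94, 1.34 and 2.22 on the wild-type arrays. YDJ1, the most abundant general J-protein, had 2.58, 2.44 and 2.52 on the mutant arrays, against 0.74, 0.49 and 1.23 on the wild-type arrays. Neither overlapped between strains, and the differences were 1.76 ± 0.26 for SIS1 (SE, limma adjusted p = 0.00245) and 1.70 ± 0.19 for YDJ1 (adjusted p = 0.000881). Like SSE1, YDJ1 was nearly the same on all mutant arrays. XDJ1 was the lowest of the list, at -0.68 ± 0.11 (adjusted p = 0.00296).

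Hsp90 takes over clients from Hsp70 through the bridging protein Sti1. Of 14 genes of Hsp90 and its co-chaperones, 12 were measured, of which 10 rose and 2 fell in the deletion (over all genes 33.7% and 31.9%) and 6 rose and 3 fell in wild type (over all genes 29.7% and 36.3%). Of these, 8 had a higher heat ratio in the deletion and 0 a lower one, where 24.8% of all genes were higher and 21.0% lower. The median strain difference was 0.90 over the list. The higher count was 5 without wild-type array 1, wild-type array 2 or mutant array 1, the lower count was 1 without mutant array 2, and 1 gene fell in the deletion without mutant array 1 or 3. STI1 had 3.27, 3.68 and 2.73 on the mutant arrays, against 2.51, 2.17 and 2.67 on the wild-type arrays (difference 0.78 ± 0.25, SE, limma adjusted p = 0.0368). Leaving out wild-type array 1 (0.81, adjusted p = 0.0973) or 2 (0.64, 0.129) or mutant array 1 (0.76, 0.104) ended that call, and adjusted p ran from 0.00232 to 0.129 over alternatives. The constitutive Hsp90 gene HSC82 differed by 0.69 ± 0.11 (adjusted p = 0.0032), and the inducible HSP82 by 0.90 ± 0.35, which was not called (adjusted p = 0.0691). It was called under 4 of 14 alternatives, namely without mutant array 3 (1.19, adjusted p = 0.0166), with quantile normalization (1.12), with centring on the genes that BY4741 lacks (1.13) and with arrays scaled to equal spread (1.05), and adjusted p ran from 0.0166 to 0.199. CNS1, an essential co-chaperone that binds both Hsp70 and Hsp90, was at 0.57, 0.64 and 0.75 on the mutant arrays, against -0.98, -1.19 and -0.92 on the wild-type arrays. It rose in the deletion and fell in wild type, with a difference of 1.68 ± 0.11 (adjusted p = 0.000309). SGT1 had the lowest difference, at -0.31 ± 0.12 (adjusted p = 0.0624), and was called under 4 of 13 alternatives, namely without mutant array 2 (-0.41, adjusted p = 0.0157), with the median of the spots (-0.36), with arrays centred on the median gene (-0.36) and with quantile normalization (-0.37). Its adjusted p ran from 0.0157 to 0.659.

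The nascent polypeptide-associated complex contacts new chains at the ribosome as the Ssb system does. Its 3 genes fell in both strains, where 31.9% of all genes fell in the deletion and 36.3% in wild type. The fall of BTT1 in wild type (-0.26 ± 0.09, SD, n = 3) was not called without wild-type array 1 (-0.22) or 3 (-0.26). EGD2 had a higher heat ratio in the deletion (0.56 ± 0.11, SE, limma adjusted p = 0.007), and BTT1 a lower one (-0.35 ± 0.11, adjusted p = 0.0365). The BTT1 call was lost when any 1 of wild-type arrays 1 (-0.39), 2 (-0.30) and 3 (-0.35) or mutant arrays 1 (-0.33) and 2 (-0.30) was left out, and with arrays centred on the genes that BY4741 lacks (-0.11). EGD1 was at -0.05 ± 0.22 (adjusted p = 0.873), a sign that changed without wild-type array 1 (0.14) or 2 (0.025) and with that centring (0.19). SNL1, a membrane-bound exchange factor for Hsp70, fell to -1.19 ± 0.21 (SD, n = 3) in the deletion and -1.11 ± 0.15 in wild type, a difference of -0.08 ± 0.14 (SE, adjusted p = 0.665) that was 0.033 without mutant array 2 and 0.16 with that centring.

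**Figure D4:**
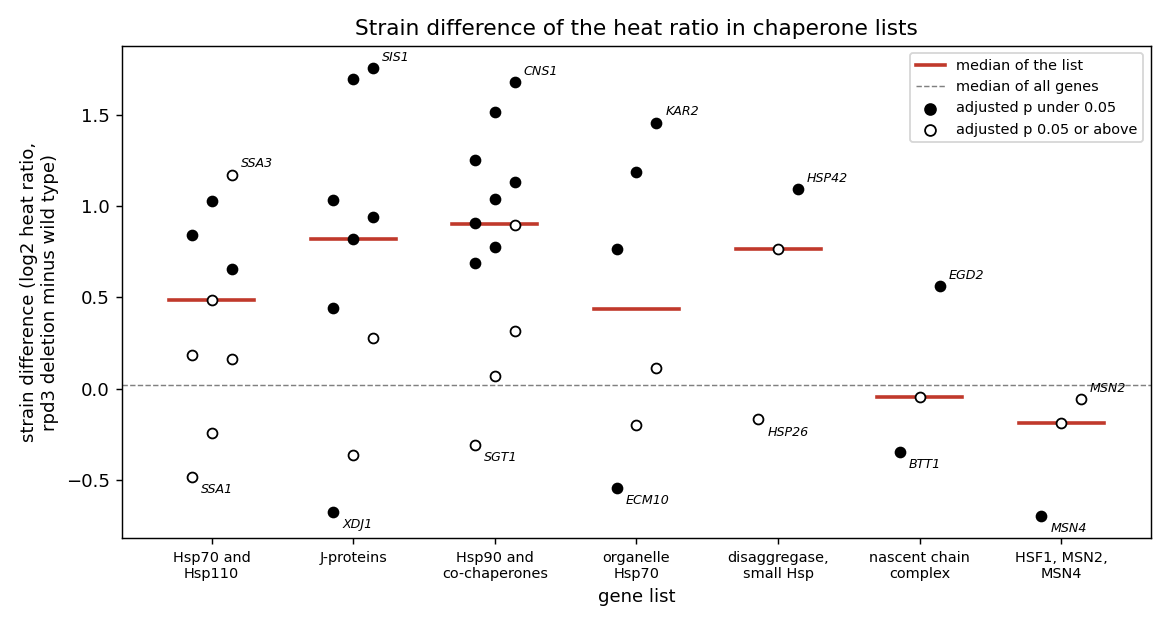
Strain difference of the heat ratio (log2, y axis, rpd3 deletion minus wild type) for the measured genes of 7 lists (x axis). Each point is a gene, filled where it was called, red bars are list medians and the dashed line is the median of all genes. The medians of the J-protein and Hsp90 lists, 0.82 and 0.90, lie above the 0.49 of the Hsp70 and Hsp110 genes.

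Likeness of pattern was measured as the Euclidean distance between the 6 array values of a gene and the mean of a class, over all genes outside the family. Nearest to SSA3 and SSA4 were ALD3 (distance 1.55), HXT6 (1.85) and HSP26 (2.09). HSP26 stood at 4.55, 5.53 and 3.70 on the mutant arrays, against 5.15, 4.30 and 4.83 on the wild-type arrays, with the highest and lowest array of each strain the same as for SSA4. HSP26 was picked on these same 6 values, so the shared order is no separate result. The mean was lower in the deletion than in wild type for ALD3 (5.35 and 5.71), HXT6 (4.72 and 4.74) and HSP26 (4.59 and 4.76). The mean of SSA3 and SSA4 was higher in the deletion (5.76 and 4.93). Nearest to the mean of SSA1 and SSA2 were TAH11 (0.34), YPT53 (0.42) and GPT2 (0.48). That mean is a pattern that neither gene has, since their wild-type means were 2.33 for SSA1 and 0.84 for SSA2. Nearest to SSB1 and SSB2 were TIR3 (0.31), the ribosomal protein gene RPS0A (0.33) and YEF3 (0.35), which encodes a translation elongation factor.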

How the data were processed

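The deposited table holds log2 ratios per spot for 6 arrays of 2 channels, made by the authors with limma (no version given), per the submitters' processing notes. How background was corrected and arrays were normalized is not given in the sources used here. Base 2 was inferred from the spread of values and limma's default, and scanner intensities were not used, so no filter on dim spots was possible. For arrays, their number limits the precision. Of 45220 spots, 10 had no value and 28532 carried 1 gene symbol in the platform's probe table (none carried several), for 4073 genes. In 125 cases an old symbol was replaced through RefSeq's R64 gene table, which then held 4065 of the 4073 symbols and which gave the locus tags.

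Spots of a gene were averaged per array. limma 3.58.1 in R 4.3.3 fitted a mean per strain over all 6 arrays with no covariate (4 residual and 3.37 prior degrees of freedom), with 3 contrasts: each strain against 0, and deletion minus wild type. Calls used a Benjamini-Hochberg adjusted p under 0.05 over all genes. The fit was tested on simulated data with independent noise for each gene and array. Such data lack effects shared by the genes of an array, so the test does not cover them. Alternatives were the median of spots, a spot SD limit of 0.3, centring on all genes or on HIS3, LEU2, MET17 and URA3 (the deleted genes), scaling, quantile normalization, leaving out each array, robust eBayes, a replicate block, and each strain alone.

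The members and lists were chosen with earlier results of these data known. Genes named are all members, RPD3, a preset set of partners, the highest and lowest strain difference of each list, and the 3 genes nearest to each of 3 classes.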

Additional observations from a re-analysis of the deposited data

Results flagged for a closer look

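In 3 members the heat ratio differed between the strains in the limma test of the difference itself. Over all genes 24.8% were called higher in the deletion and 21.0% lower, and 31.1% had all mutant arrays above all wild-type arrays. The count of 3 thus says little of the family as a whole. SSE1 was higher in the rpd3 deletion by 1.03 on the log2 scale (adjusted p = 0.00261), with 3 of 3 mutant arrays above all wild-type arrays. SSZ1 was higher in the deletion by 0.84 (adjusted p = 0.00309), again with 3 of 3 mutant arrays above. SSA2 was higher in the deletion by 0.66 (adjusted p = 0.0342), with 3 of 3 mutant arrays above, and this call was lost when any wild-type array or mutant array 1 was left out.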

How the results depend on the processing

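Of 378 values (9 genes, 3 contrasts and 14 alternatives each), 364 kept their direction and their side of the threshold, 4 lost a call, 5 gained one and 5 changed sign without a call. All of the exceptions were strain differences. Among members, 5 were called higher with quantile normalization, against 3 as reported. With 1 array left out the number called higher ran from 2 to 4 and the number called lower from 0 to 1. Signs changed for SSE2 with quantile normalization (0.050) and, with 1 array left out, for SSE2 (range -0.49 to 0.053), SSA4 (-0.17 to 1.12), SSB1 (-0.0033 to 0.37) and SSB2 (-0.061 to 0.37), and the cause was not tested. Among partner genes, centring on the genes BY4741 lacks turned the sign of strain differences for EGD1 (0.19), HSF1 (0.047), HSP26 (0.070), MSN2 (0.18) and SNL1 (0.16) and of the wild-type ratio of SGT1 (-0.093), and scaling turned HSP26 (0.014). With 1 array left out EGD1 ran from -0.31 to 0.14, HSP26 from -0.64 to 0.28, MSN2 from -0.13 to 0.045 and SNL1 from -0.17 to 0.033. Over all genes, strain differences called higher numbered 643 and lower 450 without mutant array 1, while lower ones numbered 480 and 507 when wild-type array 1 or 2 was left out, against 1012 and 854 as reported. Deviations from the strain mean correlated at -0.22, 0.21 and 0.42 between same-numbered arrays, and at -0.48 to 0.46 between differently numbered ones. Deviations of 3 arrays from their own mean are tied to one another, so these values cannot settle whether replicate numbers pair the arrays. With the replicate block 3 members were called higher and 0 lower, and 1131 and 962 genes in all. The block ended the narrow ZUO1 call (adjusted p = 0.0601) and no call of a member.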

Other observations

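Of 7 genes of the Hsp70 systems of the organelles 6 were measured. In the deletion 3 rose and 1 fell (over all genes 33.7% and 31.9%), and in wild type 4 rose and 2 fell (over all genes 29.7% and 36.3%). The strain difference was called higher in the deletion for 3 genes, lower for 1 and not called for 2, where 24.8% of all genes were higher and 21.0% lower. Its median was 0.44 over the 6 genes. KAR2, the Hsp70 of the endoplasmic reticulum, had heat ratios of 2.78, 3.16 and 2.45 on the mutant arrays, against 1.42, 1.06 and 1.53 on the wild-type arrays (difference 1.46 ± 0.20, SE, limma adjusted p = 0.00191). SSC1, the main mitochondrial Hsp70, had 1.42, 1.65 and 1.35 on the mutant arrays, against 0.73, 0.63 and 0.77 on the wild-type arrays (difference 0.76 ± 0.12, adjusted p = 0.00249). ECM10, a second mitochondrial Hsp70, was lower in the deletion (-0.54 ± 0.15, adjusted p = 0.0243), a call lost without wild-type array 1 (-0.56) or 2 (-0.50) or mutant array 1 (-0.54) and under centring on the genes that BY4741 lacks (-0.30). Without mutant array 3, 2 of these genes were lower, and ECM10 rose in the deletion (0.33).

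HSP104, the disaggregase that works with Hsp70, and the small heat shock genes HSP42 and HSP26 rose in both strains. Over all genes 33.7% rose in the deletion and 29.7% in wild type. HSP42 was higher in the deletion (1.10 ± 0.36, SE, limma adjusted p = 0.0413). That call was lost without wild-type array 1 (1.19), 2 (0.88) or 3 (1.22) and without mutant array 1 (1.03) or 2 (0.77). HSP104 was at 0.77 ± 0.40 (adjusted p = 0.147) and was called without mutant array 3 (1.20, adjusted p = 0.0102) and with quantile normalization (1.11, adjusted p = 0.00227, within 0.00227 to 0.363), and HSP26 was at -0.17 ± 0.44 (adjusted p = 0.769). Of the regulator genes, HSF1 rose by 0.36 ± 0.08 (SD, n = 3) in the deletion and 0.55 ± 0.07 in wild type, and MSN2 by 0.61 ± 0.18 in the deletion and 0.67 ± 0.15 in wild type. Neither strain difference was called (HSF1 -0.19 ± 0.10, SE, adjusted p = 0.151, and MSN2 -0.06 ± 0.13, adjusted p = 0.74). MSN4 was at 0.20 ± 0.09 in the deletion, which was not called (adjusted p = 0.0639) except with arrays centred on the genes that BY4741 lacks (0.29, adjusted p = 0.0334), and rose by 0.90 ± 0.14 in wild type, with a strain difference of -0.70 ± 0.12 (SE, adjusted p = 0.0034). Heat ratios are of RNA and say nothing of the proteins' activity.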
